A study of Homo sapiens with 18 samples.

Results

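The response of control THP-1 cells to LPS was taken from 6 of the 18 libraries of the series, the 3 titled shNT THP1 control and the 3 titled shNT THP1 with LPS, and covered all genes. THP-1 is a human monocytic leukaemia line, and the shNT line carries a lentivirally delivered short hairpin RNA that has no target. All 6 libraries came from this transduced line, kept for 2 h in buffered DMEM medium, and the LPS cells then received LPS at 2.5 μg/ml for a further 2 h before lysis while the control cells received none. The remaining 12 libraries were of lines with a hairpin against NR4A2 or NR4A3 and enter below only where the size of the response was compared. The study describes the replicates as independent experiments. Every group is thus a cultured leukaemia line at 1 dose and 1 time, and the line stands for circulating monocytes only as far as such a line can.

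RNA was sequenced from polyadenylated libraries and counted on 57500 Ensembl genes, of which 39725 had a count in at least 1 of the 6 libraries. The 3 control libraries held 21068626, 17132910 and 19654525 counts, and the 3 LPS libraries held 20425843, 20187892 and 21602737. Reads on mitochondrial genes made up 1.45%, 1.96% and 1.31% of the counts in control libraries and 1.60%, 1.28% and 1.78% in LPS libraries. Over the 500 most variable genes, 95.0% of the variance lay on principal component 1, on which the control libraries fell between -38.9 and -37.4 and the LPS libraries between 34.9 and 40.1. Component 2 held 1.72%. Levels are given below as TPM, counts divided by gene length and scaled to the same sum in each library. Because TPM are shares, the fold changes are those of edgeR, whose TMM normalization centres most genes near no change.

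LPS is the lipid of the outer membrane of Gram-negative bacteria. CD14 and MD-2 (gene LY96) hand it to Toll-like receptor 4 (TLR4), whose adaptors MyD88 and TRIF (gene TICAM1) activate the NF-κB, AP-1 and IRF transcription factors. In monocytes these drive within hours a wave of chemokines, cytokines and inhibitors of the same pathway, followed by interferon-dependent genes. Genes of this wave are known for their low resting level and their short-lived mRNA.

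The 7 listed myeloid precursor markers, of which 6 were tested and 0 called, differed widely in level. KIT and CD34 are among them, and their levels are not given. ELANE, AZU1, PRTN3 and CTSG, the granule proteases of myeloid precursors, had means of 4154, 3095, 2406 and 4126 TPM in control cells, whereas MPO had 4.93 TPM. All 10 monocyte and macrophage markers were tested and 0 were called, with SPI1, the transcription factor of the myeloid lineage, at 571 ± 36.8 TPM, CD14 at 22.6 ± 8.35 TPM and CD68 at 2.69 ± 0.290 TPM in control cells (SD, n = 3 each). Markers of other cell types were low in every library. The 6 T cell markers summed to between 4.56 and 5.26 TPM in control libraries and between 3.66 and 5.96 TPM in LPS libraries, nearly all of it TRAC. The 5 B cell markers summed to between 12.1 and 17.3 TPM and between 11.5 and 13.3 TPM, with PAX5 the most abundant at 6.31 TPM in control cells. Of the 4 B cell markers tested CD79A was called, at 1.86 TPM in control cells and 3.26 TPM with LPS. This call was lost with DESeq2, with all 18 libraries in 1 fit, with library totals and with glmTreat, edgeR's test against 2-fold. It was also lost when any 1 of the 6 libraries was left out. The other lists, of NK, epithelial, fibroblast, endothelial and erythroid markers, each summed to under 4 TPM in every library. Of 3 endothelial markers tested VWF was called higher, from 0.241 to 0.446 TPM, and KDR lower, from 1.81 to 0.686 TPM. The first call was lost with DESeq2, library totals, glmTreat and a mean of at least 1 TPM in the higher group. It was also lost without LPS replicate 1, LPS replicate 3, control replicate 1 or control replicate 3. The second call was lost with glmTreat and without control replicate 3. The part of these cell types in the results was not tested. In such bulk libraries, fewer cells of a type and less RNA per cell cannot be told apart.

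LPS changed a minority of the genes, and the rises were larger than the falls. Of 15711 genes tested by edgeR's quasi-likelihood test, 1188 (7.56%) passed both limits of a call, an adjusted p below 0.05 and a change of 2-fold or more. Of the genes tested, LPS raised 694 (4.42%) and lowered 494 (3.14%). Without the 2-fold limit, 3909 genes (24.9%) passed. The 3 LPS and 3 control libraries did not overlap in 691 of the called higher genes and in 492 of the called lower genes, against 40.0% of all genes tested. Among the called genes, 371 rose and 62 fell at least 4-fold, 139 rose and 3 fell at least 16-fold, and 88 rose and 0 fell at least 32-fold. The largest rise of a called gene was 9.70 on the log2 scale and the largest fall was by 4.17.

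The share of rises depended on the scaling. TMM factors ran from 1.04 to 1.09 in control libraries and from 0.935 to 0.953 in LPS libraries. With library totals in place of TMM, the median gene moved by -0.17 on the log2 scale and 608 genes were called higher and 809 lower, so that 42.9% of the calls were higher in place of 58.4%. With TMM the median log2 fold change of all genes tested was -0.01. The 15 housekeeping genes had a median of 0.24 with TMM and 0.07 with library totals, and 0 of them were called.

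**Figure D1:**
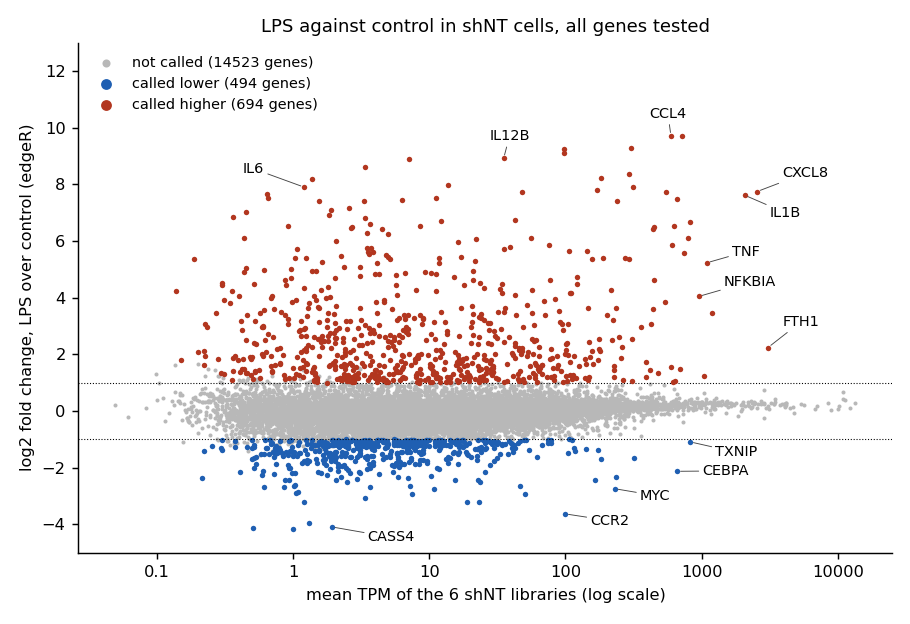
Each point is a gene tested in the 6 shNT libraries, with its mean TPM on the x axis (log scale) and its log2 fold change with LPS over control on the y axis. The dotted lines mark the 2-fold limit. The 694 genes called higher reach 9.70, while the largest fall among the 494 called lower is by 4.17.

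The called higher genes came to take a far larger share of the mRNA. Together they made up 13763, 12104 and 12566 TPM in the control libraries and 81833, 72722 and 74976 TPM in the LPS libraries, and the called lower genes 12110.4, 11754 and 11817 TPM in control and 3680.1, 3986 and 3329 TPM in LPS libraries. These sums are a description, since the genes were called on the same libraries. Of the called higher genes, 243 had a mean under 1 TPM in control cells and 11 had no count in any control library. Genes at that level pass the filter on low counts mainly through the LPS libraries, so their share of calls (18.4% of 1321 genes tested) was not set against that of other genes. Among genes of 1 to 10 TPM in control cells, 4.94% were called higher and 5.50% lower, and among those of at least 100 TPM, 1.37% and 1.19%.

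**Figure D2:**
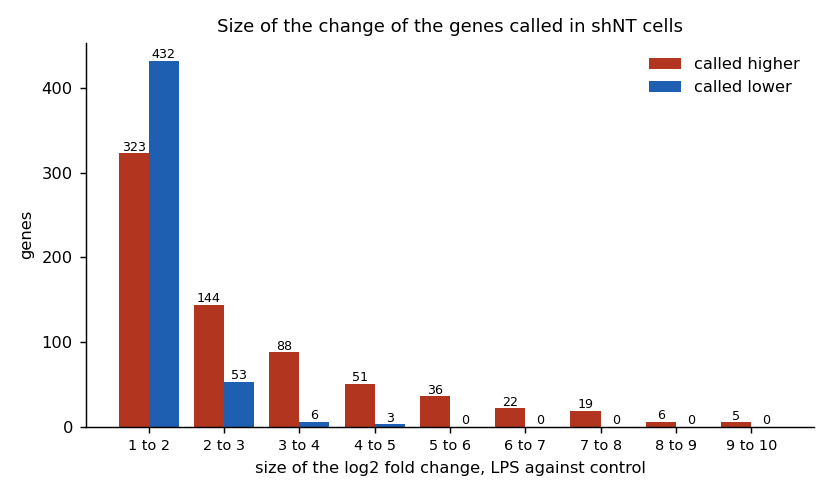
Number of genes (y axis) called higher and called lower in shNT cells with LPS, by the size of the log2 fold change (x axis, 1 unit a bin). In the bin from 1 to 2 there were 323 higher and 432 lower genes, and from 4 upward 139 higher and 3 lower.

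Chemokines were among the genes that rose most. For this and every list below, the shares to set beside a count are the 4.42% called higher and 3.14% called lower of all genes tested, with a median log2 fold change of -0.01. Members with few counts were not tested, and members without control counts passed the filter through the LPS libraries, which can raise the counts and medians of lists of low-level genes. Of the 10 CXC chemokine genes tested, 9 were called higher and 0 lower, and of the 12 CC chemokine genes 7 and 0, with median log2 fold changes of 7.43 and 4.98. CXCL8 (ENSG00000169429, chromosome 4, 73740506 to 73743716, plus strand), which attracts neutrophils, had 36.6, 26.1 and 19.3 TPM in the control libraries and 5932, 5139 and 4170.1 TPM in the LPS libraries, the largest gain in TPM of any called gene. The groups lay far apart, with both the highest control and the highest LPS value in replicate 1. Its fold was 215 by edgeR's quasi-likelihood test (log2 fold change 7.75, standard error 0.23, adjusted p = 9.45e-12).

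The neutrophil-attracting chemokines CXCL1, CXCL2 and CXCL3 lie beside CXCL8 on chromosome 4 and rose with it. CXCL3 (ENSG00000163734, chromosome 4, 74036589 to 74038807, minus strand) had 0.554, 0.0938 and 0.514 TPM in control and 207, 162 and 214 TPM in LPS libraries, with 7, 1 and 6 counts behind the control values. CXCL2 went from 2.03 ± 0.915 to 583 ± 32.4 TPM and CXCL1 from 2.97 ± 0.873 to 619 ± 131 TPM (SD, n = 3 each), with log2 fold changes of 8.35 and 7.91. The interferon-inducible, lymphocyte-attracting chemokines lie further along the chromosome. CXCL10 (ENSG00000169245, chromosome 4, 76021117 to 76023497, minus strand) had 1.05, 1.42 and 1.78 TPM in control and 256, 281 and 555 TPM in LPS libraries, a log2 fold change of 8.23 (standard error 0.394). The LPS libraries varied here, with replicate 3 about as high as the other two together. CXCL11 had 10.4, 13.6 and 26.4 TPM and CXCL9 2.93, 2.30 and 5.99 TPM in LPS libraries, again highest in replicate 3. CXCL16, a membrane-bound chemokine, had a log2 fold change of 0.03 and was the CXC chemokine tested that was not called.

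The upstream sequences of CXCL1, CXCL2, CXCL3, CXCL10, the cytokine IL6 and the noncoding gene MIR3142HG, both described below, are shown because they hold a match to the NF-κB motif, the element bound by the NF-κB dimers that LPS activates. Of the 15 genes with the largest rises under the naming rule, 11 had an entry in the RefSeq promoter table (GRCh38.p14) and 6 of those held a match within 250 bases before the start. Each start is that of the promoter table, and in IL6 and CXCL3 it lies inside the gene span given in the text. The 140 bases before each start follow, 5′ to 3′ on the gene's strand, with the match in capitals.
MIR3142HG, chr5:160468111-160468250, plus strand: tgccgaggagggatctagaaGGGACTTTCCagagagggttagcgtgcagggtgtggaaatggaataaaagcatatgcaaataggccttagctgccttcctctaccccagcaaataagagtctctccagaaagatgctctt
CXCL3, chr4:74038690-74038829, minus strand: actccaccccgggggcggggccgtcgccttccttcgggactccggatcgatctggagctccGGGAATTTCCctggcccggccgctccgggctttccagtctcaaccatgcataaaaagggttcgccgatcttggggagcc
CXCL2, chr4:74099196-74099335, minus strand: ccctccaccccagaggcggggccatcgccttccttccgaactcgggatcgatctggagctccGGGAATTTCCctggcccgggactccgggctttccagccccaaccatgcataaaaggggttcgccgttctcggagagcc
CXCL1, chr4:73869253-73869392, plus strand: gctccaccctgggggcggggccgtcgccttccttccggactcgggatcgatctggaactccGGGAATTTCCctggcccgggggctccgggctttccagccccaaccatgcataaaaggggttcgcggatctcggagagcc
CXCL10, chr4:76023498-76023637, minus strand: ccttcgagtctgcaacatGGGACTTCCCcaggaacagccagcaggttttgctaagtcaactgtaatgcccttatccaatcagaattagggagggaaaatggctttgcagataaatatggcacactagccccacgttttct
IL6, chr7:22727060-22727199, plus strand: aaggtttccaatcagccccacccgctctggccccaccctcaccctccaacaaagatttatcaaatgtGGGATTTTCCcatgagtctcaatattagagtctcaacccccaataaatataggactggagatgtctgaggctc
The match began 79, 78 and 79 bases before the start in CXCL3, CXCL2 and CXCL1, with the same 10 letters in all 3, and 122, 73 and 120 bases before it in CXCL10, IL6 and MIR3142HG. A match is a run of letters, not a measured binding site.

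CC chemokines split into genes with very large rises and genes that were not called. CCL4 (ENSG00000275302, chromosome 17, 36103590 to 36105621, plus strand), which attracts monocytes and T cells, had 1.12, 1.33 and 2.53 TPM in control and 1143, 1107 and 1323 TPM in LPS libraries, the largest log2 fold change under the naming rule by edgeR's quasi-likelihood test (log2 fold change 9.70, standard error 0.189, adjusted p = 2.17e-13). Its near-identical copy CCL4L2 had 1465, 1285 and 1567 TPM in LPS libraries. The counting may have split reads between the copies, and the same holds for CCL3, with 6.01 ± 1.69 TPM in control and 1086 ± 89.8 TPM in LPS cells, and CCL3L1, so these values are uncertain gene by gene. CCL20, a ligand of CCR6 that attracts lymphocytes and dendritic cells, had 11.6, 6.82 and 6.94 TPM in control and 1540.3, 1137 and 1272 TPM in LPS libraries. CCL2, the main monocyte attractant, rose from 10.8 ± 3.31 to 102 ± 33.6 TPM, with its highest LPS value in replicate 1. CCL5 was already high. It had 572, 485 and 456 TPM in control and 800.1, 704 and 729 TPM in LPS libraries, which did not overlap, but its log2 fold change of 0.78 stayed under the 2-fold limit (adjusted p = 7.88e-05 by edgeR's quasi-likelihood test).

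Of 42 cytokine and growth factor genes listed, 15 were not tested. Of the 27 tested, 17 were called higher and 2 lower, against 4.42% and 3.14% of all genes tested, with a median log2 fold change of 2.17. IL1B (ENSG00000125538, chromosome 2, 112829751 to 112836903, minus strand), the secreted form of interleukin-1, had 27.6, 19.6 and 25.9 TPM in control and 4935, 3686 and 3715 TPM in LPS libraries (edgeR log2 fold change 7.62, standard error 0.168, adjusted p = 5.39e-13). It was the second gain in TPM after CXCL8, and its neighbour IL1A went from 1.75 ± 0.534 to 339 ± 102 TPM. TNF (ENSG00000232810, chromosome 6, 31575567 to 31578336, plus strand), the first cytokine released after LPS, had 72.3, 71.9 and 51.6 TPM in control and 2221, 2168 and 1964 TPM in LPS libraries, a 37.6-fold rise.

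Subunits of the interleukin-12 family differed in level. IL12B, the p40 subunit shared by IL-12 and IL-23, had 0.191, 0.151 and 0.138 TPM in control and 69.9, 65.7 and 74.9 TPM in LPS libraries, and IL23A, its partner in IL-23, 11.1, 12.8 and 12.2 TPM and 776, 754 and 1088 TPM. EBI3, a subunit of IL-27, rose from 0.746 ± 0.272 to 43.4 ± 18.8 TPM. IL12A, the partner of IL12B in IL-12, had 5, 9 and 9 counts in control and 1, 8 and 0 counts in LPS libraries and was not tested, and IL10, the anti-inflammatory cytokine, had 2, 1 and 0 and 2, 8 and 3 counts.

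Other cytokines rose from low levels or from no count. IL6 (ENSG00000136244, chromosome 7, 22725884 to 22732002, plus strand), which drives the acute phase response, had no count in any control library and 43, 15 and 29 counts in the LPS libraries, or 3.62, 1.31 and 2.25 TPM. Against a floor of 3 counts over the control group this was at least 25.9-fold higher. CSF3, the granulocyte growth factor, had no control count either and 33, 25 and 50 LPS counts, at least 31.9-fold higher. LIF rose from 0.765 ± 0.465 to 19.7 ± 4.45 TPM and INHBA, a subunit of activin, from 0.0396 ± 0.0356 to 5.05 ± 0.689 TPM. The antiviral IFNB1 had no control count and 10, 19 and 15 counts with LPS, too few for the filter, so that it was not tested. TNFSF14 (LIGHT), a ligand of the TNF family, fell from 39.6 ± 8.46 to 6.35 ± 1.04 TPM (log2 fold change -2.42), and TNFSF13B (BAFF) from 9.27 ± 1.57 to 3.802 ± 0.827 TPM. IL1RN, the antagonist of the interleukin-1 receptor, had 23.3 ± 2.76 and 25.2 ± 4.46 TPM and was not called (adjusted p = 0.0869 by edgeR).

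**Figure D3:**
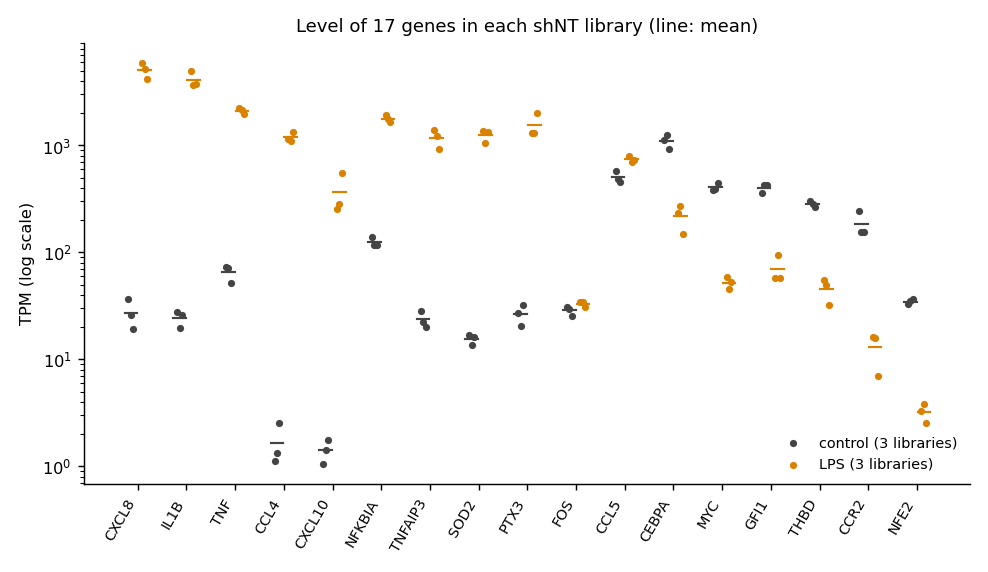
TPM (y axis, log scale) of 17 genes in each of the 3 control and 3 LPS libraries of shNT cells, with a line at the mean of each group. The libraries overlap in none of the genes shown. In CXCL8 the LPS libraries have 5932, 5139 and 4170.1 TPM against 36.6, 26.1 and 19.3 in control, and in CCR2 16.3, 15.9 and 6.94 against 246, 154 and 155.

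Genes of the NF-κB system itself rose. Of 18 genes for NF-κB subunits, IκB proteins and their kinases, 11 were called higher and 0 lower, with a median log2 fold change of 1.62. NFKBIZ, the nuclear IκBζ needed for the second wave of cytokine genes, had 3.24, 3.18 and 3.38 TPM in control and 498, 515 and 413 TPM in LPS libraries (edgeR log2 fold change 7.40, standard error 0.116, adjusted p = 5.91e-14). NFKBIA, which encodes IκBα and is resynthesized after each activation, had 141, 117 and 118 TPM and 1909, 1783 and 1644 TPM. Among the subunits, NFKB2 rose from 24.8 ± 1.78 to 409 ± 67.3 TPM, NFKB1 from 50.1 ± 4.44 to 394 ± 59.8 TPM, RELB from 40.4 ± 5.20 to 362 ± 36.7 TPM and REL from 9.08 ± 0.666 to 57.7 ± 6.77 TPM. RELA, the main activating subunit, had 75.9 ± 4.35 and 83.0 ± 7.68 TPM and a log2 fold change of 0.35, below the limit. The genes of the IκB kinase complex were not called.

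Of 29 feedback inhibitors of TLR and NF-κB signalling, 14 were called higher and 2 lower (median log2 fold change 0.92). With library totals 14 were called higher and 4 lower. TNFAIP3 (ENSG00000118503, chromosome 6, 137867188 to 137883312, plus strand), the ubiquitin-editing enzyme A20, had 28.6, 22.4 and 20.3 TPM in control and 1389, 1235 and 926 TPM in LPS libraries. TNIP3, a partner of A20, had a log2 fold change of 7.52 and TNFAIP6 (TSG-6), a secreted protein that binds hyaluronan, one of 9.28, with 574, 486 and 753 TPM in LPS libraries. The suppressors of cytokine signalling moved in opposite directions. SOCS3, which blocks IL-6 family receptors, had 10.4, 7.16 and 8.56 TPM in control and 333, 271 and 318 TPM in LPS libraries, whereas SOCS1, which blocks interferon receptors, had 18.8, 26.0 and 11.2 TPM and 3.84, 3.53 and 4.60 TPM, and CISH fell from 9.04 ± 0.880 to 1.75 ± 0.387 TPM. The calls of SOCS3, SOCS1 and CISH had log2 fold changes of 5.36, -2.001 and -2.14. Among 14 factors of cytokine mRNA decay, ZC3H12A (regnase-1), a nuclease of cytokine mRNAs, rose from 15.9 ± 2.51 to 570.2 ± 19.7 TPM and ZC3H12C from 5.95 ± 0.911 to 58.2 ± 8.69 TPM. ZFP36 (tristetraprolin), which marks TNF mRNA for decay, had a log2 fold change of 0.89 and was not called, and its relative ZFP36L2 fell from 506 ± 34.9 to 137 ± 16.9 TPM.

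Early transcription factor genes changed in either direction. Of 55 such genes tested, 29 were called higher and 10 lower (median 1.26). EGR2 had 1.000, 1.07 and 0.619 TPM in control and 82.1, 88.6 and 80.9 TPM in LPS libraries, and EGR1 rose from 20.9 ± 3.06 to 161 ± 45.8 TPM. NR4A1, NR4A2 and NR4A3, of which the last pair are the hairpin targets in the other lines, were called higher. Of the AP-1 genes, JUN rose from 103 ± 25.2 to 750.1 ± 145 TPM and JUNB from 79.0 ± 6.21 to 414 ± 46.5 TPM, whereas FOS had 30.9, 29.8 and 25.6 TPM in control and 34.3, 34.4 and 31.1 TPM in LPS libraries, a log2 fold change of 0.42 that stayed below the limit. The 10 called lower were inhibitors of differentiation (ID1, ID2 and ID3), MYC, CEBPA, CEBPE, BATF2, BHLHE40, HES1 and IER5L. The calls of BHLHE40 (log2 fold change -1.03) and ID1 (-1.02) were lost when LPS replicate 2, LPS replicate 3 or control replicate 1 was left out. Of 17 MAP kinase phosphatases and related inhibitors, 8 were called higher and 2 lower. There were 5 higher and 2 lower with library totals, and 7 higher and 1 lower without control replicate 1. DUSP8 rose from 3.36 ± 0.878 to 65.0 ± 11.6 TPM and DUSP1 from 5.55 ± 1.68 to 45.3 ± 13.2 TPM, and DUSP7 fell from 64.0 ± 3.03 to 25.4 ± 2.58 TPM.

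Of the 10 called lower genes that lost most TPM under the naming rule, CEBPA, MYC, GFI1 and MYB are transcription factors known from blood cell development. CEBPA (ENSG00000245848, chromosome 19, 33299934 to 33302564, minus strand), which directs granulocyte and monocyte development, had 1119.8, 1258 and 928 TPM in control and 236, 273 and 149 TPM in LPS libraries, the largest loss in TPM (edgeR log2 fold change -2.12, standard error 0.176, adjusted p = 7.31e-07). MYC (ENSG00000136997), which drives growth and proliferation, had 381, 391 and 449.7 TPM and 58.5, 45.8 and 52.5 TPM. GFI1, a repressor needed in neutrophil development, went from 404 ± 36.3 to 70.0 ± 21.1 TPM, and MYB, a factor of blood progenitors, from 287 ± 30.8 to 76.3 ± 14.6 TPM. NFE2, a factor of platelet and red cell precursors that was named for its fold, had 33.0, 34.8 and 36.4 TPM and 3.32, 3.79 and 2.54 TPM. In each of these 5 genes the LPS libraries lay below the control libraries with a wide gap.

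Chemokine receptors were among the receptors called lower. CCR2 (ENSG00000121807, chromosome 3, 46353734 to 46360928, plus strand), the receptor for CCL2, had 246, 154 and 155 TPM in control and 16.3, 15.9 and 6.94 TPM in LPS libraries (edgeR log2 fold change -3.63, standard error 0.258, adjusted p = 1.41e-07). CCR1, a receptor for CCL3, had 104, 75.5 and 66.4 TPM and 12.4, 12.5 and 9.36 TPM. CXCR2, the receptor for CXCL8, fell from 21.0 ± 2.76 to 5.63 ± 1.07 TPM, and CX3CR1 from 58.7 ± 7.13 to 17.7 ± 3.57 TPM. Over all 45 receptors tested 10 were called higher and 8 lower, with a median of -0.01. Higher were the co-stimulatory receptor CD40, from 23.2 ± 1.07 to 166 ± 36.8 TPM, the complement receptor C3AR1, from 25.5 ± 0.873 to 184 ± 10.3 TPM, and IL18R1, from 0.176 ± 0.0150 to 7.57 ± 3.46 TPM. TNFRSF1A, the main receptor for TNF, fell from 112 ± 4.15 to 44.0 ± 4.30 TPM.

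Of 21 genes of the LPS receptor and TLR pathway, 6 were called higher and 0 lower, with a median of 0.09. Without LPS replicate 1 there were 5 higher and 2 lower, and with library totals 5 higher and 1 lower. TLR4 had 21.6, 16.6 and 16.97 TPM in control and 39.2, 36.1 and 26.3 TPM in LPS libraries and passed the 2-fold limit narrowly (log2 fold change 1.09), a call lost with library totals and without LPS replicate 1. TLR2, the receptor for bacterial lipopeptides, rose from 75.2 ± 7.13 to 206 ± 6.51 TPM and TLR7, a receptor for single-stranded RNA, from 0.272 ± 0.147 to 10.1 ± 1.82 TPM. TICAM1 rose from 20.1 ± 1.23 to 96.6 ± 12.5 TPM, the kinase gene IRAK2 from 6.86 ± 0.488 to 147 ± 28.999 TPM and RIPK2 from 23.01 ± 1.80 to 83.8 ± 5.51 TPM. The adaptor MYD88 (log2 fold change 0.32) was not called. CD14 had 32.2, 18.2 and 17.3 TPM in control and 21.7, 11.8 and 11.6 TPM in LPS libraries, which overlapped, and LY96 had 4, 1 and 7 and 10, 4 and 4 counts, too few to test.

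Of 46 interferon-stimulated genes tested, 7 (15.2%) were called higher, against 4.42% of all genes tested, and 0 lower, with a median of 0.25. This median was 0.07 with library totals and between 0.17 and 0.31 without 1 library. The guanylate-binding protein genes GBP1, GBP2, GBP3 and GBP5 made up 4 of the 7, with GBP2 at 2.60, 2.06 and 2.24 TPM in control and 23.1, 19.5 and 24.0 TPM in LPS libraries. OASL, IFIH1 and IFIT2 were the others, with log2 fold changes of 1.53, 1.37 and 1.19. IFIT3 (0.92), ISG15 (0.71) and IRF7 (0.73) stayed below the limit. Of 28 antigen presentation genes, 1 was called higher and 0 lower. It was the class II gene HLA-DRA, with 10.7, 9.60 and 10.1 TPM in control and 24.8, 30.0 and 23.5 TPM in LPS libraries. The class I gene HLA-B had a log2 fold change of 0.65, below the limit.

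**Figure D4:**
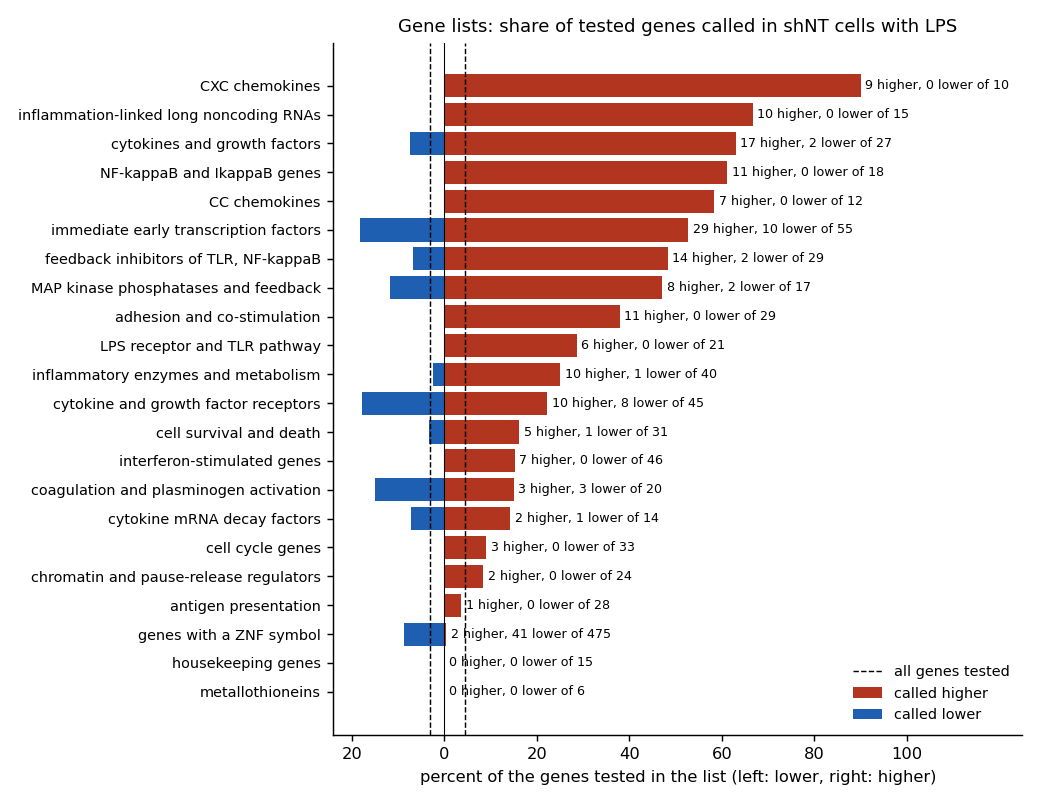
Percent of the genes tested in each list (x axis, called lower to the left of 0 and called higher to the right), with the counts beside each bar. The dashed lines mark 3.14% lower and 4.42% higher over all genes tested. CXC chemokines lie farthest to the right, with 9 of 10 called higher, and genes with a ZNF symbol have 41 of 475 called lower.

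Surface molecules of activated monocytes were among the genes called. Of 29 adhesion and co-stimulation genes, 11 were called higher and 0 lower (median 0.27). ICAM1, the ligand of leukocyte integrins, had 8.34, 5.67 and 5.29 TPM in control and 334, 244 and 268 TPM in LPS libraries, and CD83, a marker of dendritic cell maturation, 14.4, 14.3 and 15.3 TPM and 558, 545 and 500.5 TPM. CD80, the partner of T cell CD28, and CD274 (PD-L1) rose to 1.31 ± 0.339 and 1.27 ± 0.192 TPM, while CD86 (3.19 ± 1.36 and 2.32 ± 0.675 TPM) was not called. Of 31 survival and death genes 5 (16.1%) were called higher and 1 (3.23%) lower, against 4.42% and 3.14% of all genes. Without LPS replicate 1 there were 5 higher and 2 lower. BIRC3 (cIAP2) rose from 0.885 ± 0.214 to 33.5 ± 1.96 TPM and BCL2A1 from 10.1 ± 1.54 to 232 ± 36.1 TPM, which both oppose cell death, as does CFLAR at 18.2 ± 2.16 and 40.7 ± 2.24 TPM. The death-promoting genes BCL2L11 (BIM) and PMAIP1 (NOXA) also rose, with log2 fold changes of 1.51 and 1.27. NLRC4, an inflammasome sensor, was the 1 lower gene, and the sensor NLRP3, with 102 ± 8.93 and 66.0 ± 12.6 TPM, was not called.

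Enzymes of inflammation were called higher in 10 and lower in 1 of 40 cases. SOD2, the mitochondrial superoxide dismutase, had 16.8, 13.7 and 16.3 TPM in control and 1353, 1057 and 1336 TPM in LPS libraries. PTGS2 (cyclooxygenase-2) rose from 1.84 ± 0.288 to 110.2 ± 27.9 TPM, with the prostaglandin receptor PTGER4 from 92.6 ± 8.93 to 628 ± 172 TPM. ACOD1, which makes itaconate, had 0, 0 and 2 counts in control and 87, 33 and 85 counts in LPS libraries. The glucose transporter SLC2A6 rose from 10.3 ± 0.701 to 369 ± 57.4 TPM, whereas SLC2A1 (251 ± 17.8 and 150.3 ± 25.2 TPM) and HIF1A (log2 fold change 0.71) were not called. TXNIP, an inhibitor of glucose uptake and of thioredoxin, fell from 1172 ± 59.8 to 473 ± 61.4 TPM. Of 20 coagulation and plasminogen genes 3 (15%) were called in each direction, against 4.42% higher and 3.14% lower of all genes. THBD, the anticoagulant thrombomodulin, had 299.9, 285 and 269 TPM in control and 55.0, 49.4 and 32.2 TPM in LPS libraries (edgeR log2 fold change -2.43, standard error 0.149, adjusted p = 2.69e-08), while F3, the tissue factor that starts coagulation, had 219, 168 and 189 TPM and 267, 259 and 226 TPM, a log2 fold change of 0.60 under the limit.

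Other large gains in TPM fell outside these families. FTH1, the ferritin heavy chain that stores iron, rose from 1217 ± 254 to 4934 ± 666 TPM, a value that is uncertain because many pseudogene copies can share its reads. PLEK (pleckstrin), a protein kinase C substrate, had 232, 229 and 213 TPM in control and 2237, 2138 and 2079 TPM in LPS libraries. CTGF, a secreted matricellular protein, rose from 18.8 ± 1.54 to 1634 ± 261 TPM, PTX3, a soluble pattern recognition protein, from 26.7 ± 5.72 to 1555 ± 409.9 TPM, and BTG2, an antiproliferative gene, from 35.4 ± 1.94 to 1447 ± 97.1 TPM. SHROOM3, an actin-binding protein of epithelia (ENSG00000138771, chromosome 4, 76435100 to 76783253, plus strand) that lies beyond the CXCL9 to CXCL11 genes, had 0.0667, 0.0633 and 0.246 TPM in control and 27.0, 26.4 and 28.3 TPM in LPS libraries.

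Among all lincRNA genes tested 63 were called higher, 31 lower and 498 in neither direction, and among antisense genes 60, 45 and 718, where 4.42% of all genes were called higher and 3.14% lower. Of 15 inflammation-linked long noncoding RNAs tested, 10 were called higher and 0 lower, with a median of 1.22. MIR3142HG (ENSG00000253522, chromosome 5, 160468268 to 160487426, plus strand) had 0.534, 0.271 and 0.248 TPM in control and 238, 149 and 193 TPM in LPS libraries, on 7, 3 and 3 control counts. MIR155HG (ENSG00000234883, chromosome 21, 25561909 to 25575168, plus strand) had 15.1, 16.9 and 16.8 TPM and 146, 152 and 189 TPM, and MIR222HG rose from 1.85 ± 0.615 to 9.15 ± 1.08 TPM. These hosts were called higher, and 5 of the mature miRNAs that lie within them are shown, from RefSeq on GRCh38.p14. The opposite arms miR-146a-3p, miR-155-3p and miR-222-5p, which the table also places there, are left out. The miRNAs were not measured in these libraries. The seed, bases 2 to 8, is in capitals.
hsa-miR-146a-5p, within MIR3142HG: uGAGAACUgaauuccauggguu
hsa-miR-3142, within MIR3142HG: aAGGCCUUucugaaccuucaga
hsa-miR-155-5p, within MIR155HG: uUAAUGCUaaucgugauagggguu
hsa-miR-221-3p, within MIR222HG: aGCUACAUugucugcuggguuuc
hsa-miR-222-3p, within MIR222HG: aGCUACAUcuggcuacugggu
The last pair share a seed, and the others differ. miR-146a is known to target IRAK1 and TRAF6 of the TLR pathway, whose mRNAs had log2 fold changes of 0.09 and -0.15 and were not called. Among the 15 largest rises in fitted log2 fold change were also 2 noncoding genes without a control count. Their places among the 15, and that of IL6, rest on folds fitted without control counts and are uncertain. AL356215.1 (ENSG00000255521, chromosome 11, 35132655 to 35138032, minus strand), which lies on the opposite strand just before CD44, had 50, 48 and 44 counts in LPS libraries, at least 42.6-fold higher, and AL121785.1 on chromosome 20 had 63, 53 and 59 counts, at least 52.3-fold higher. Whether the counting used the strand is not stated, so reads of a gene and its antisense partner cannot be told apart.

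Genes of other functions also fell steeply. CASS4, a Cas-family adaptor of focal adhesions, had 4.19, 3.37 and 3.34 TPM in control and 0.138, 0.213 and 0.190 TPM in LPS libraries (edgeR log2 fold change -4.09, standard error 0.296, adjusted p = 1.68e-07), and ADORA3, the adenosine A3 receptor, 2.42, 1.70 and 3.26 TPM and 0.259, 0.0671 and 0.0599 TPM. FRG2, with 2.18 and 0.195 TPM, belongs to a family of near-identical copies and is uncertain. INKA1, an inhibitor of the kinase PAK4, fell from 42.4 ± 4.43 to 3.93 ± 0.743 TPM, PDK4, which switches off pyruvate oxidation, from 6.07 ± 1.48 to 0.625 ± 0.141 TPM, and C16orf54 from 90.4 ± 7.89 to 10.2 ± 1.80 TPM. The developmental genes DLX3 and WNT6 fell by 2.91 and 2.74 on the log2 scale, and IRX3 by 1.37 from 259.7 ± 39.7 TPM. The protease gene ADAMTS4 had a log2 fold change of -2.49, C9orf139 of -2.63 and the pseudogene PTCHD3P2 of -2.66. C9orf139 overlaps other genes, so that its reads are uncertain too.

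Zinc finger genes leaned to lower values. Of 475 genes with a ZNF symbol tested, 2 were called higher and 41 lower, and their median log2 fold change was -0.35 against -0.01 for all genes. The median ran from -0.52 with library totals to -0.29 over the alternatives, negative in each. The zinc finger gene ZFP69, whose symbol falls outside that count, had 209.9 ± 28.2 TPM in control and 71.1 ± 5.62 TPM in LPS cells and was called lower.

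Cell cycle and chromatin genes were called at shares of 9.09% and 8.33%, close to the 7.56% of all genes tested. Of 33 cell cycle genes 3 were called higher, the stress-responsive kinases PLK2 (log2 fold change 2.84) and PLK3 (1.71) and the cyclin CCND1 (1.16, a call lost with library totals), and 0 lower. MKI67, the proliferation marker, had 159 ± 45.6 and 97.8 ± 22.8 TPM (log2 fold change -0.48). Of 24 chromatin and pause-release regulators 2 were called higher, KDM6B (JMJD3), a demethylase of histone H3 known to be LPS-induced, from 16.4 ± 1.55 to 69.1 ± 11.7 TPM, and the coactivator NCOA7. Of 6 metallothionein genes 0 were called higher and 0 lower by edgeR and by DESeq2. MT2A, the member with the largest change, lay just under the 2-fold limit (log2 fold change 0.97, adjusted p = 0.00314 by edgeR) and was called higher without LPS replicate 1, LPS replicate 2, control replicate 2 or control replicate 3.

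The genomic span of the called higher genes had a median of 16159 bases and that of the called lower genes 10448 bases, against 26602 bases over all genes tested, and 40.2% and 48.2% of them spanned under 10 kb, against 27.0%. Of the called higher genes, 35.7% had another called higher gene within 100 kb, and of all genes tested 10.1% had one. For the called lower genes the shares were 23.9% and 11.25%. Neighbouring gene families such as the chemokines and overlapping antisense genes are counted in these shares.

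Promoters were matched for 464 of the 694 called higher genes, 317 of the 494 called lower genes and 11241 of the 15711 genes tested. The NF-κB motif was found within 250 bases before the start, on either strand, in 14.2% of the called higher genes, in 19.6% of those called at least 16-fold higher, in 7.89% of the called lower genes, in 8.06% of all genes tested and in 6.60% of all 27305 promoters of the table. The AP-1 motif TGANTCA was found in 7.33%, 11.96%, 6.94%, 3.91% and 6.60%. A TATA box, TATAAA on the gene's strand between 45 and 15 bases before the start, was found in 8.84%, 20.7%, 2.52%, 1.74% and 2.63%. The interferon response element GAAANNGAAA was found in 3.66% of the called higher genes and 2.43% of all genes tested, the NR4A response element AAAGGTCA in 1.08% and 0.667%, the cAMP response element TGACGTCA in 3.02% and 2.80%, and the CArG box in 2.37% and 1.05%. In the same order, the shares of all 27305 promoters were 3.07%, 1.05%, 1.765% and 1.14%. The 1.08% for the NR4A element rested on 5 of 464 genes. No match was dropped for overlapping another. These shares describe letters in 1 listed start for each gene and give no test.

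**Figure D5:**
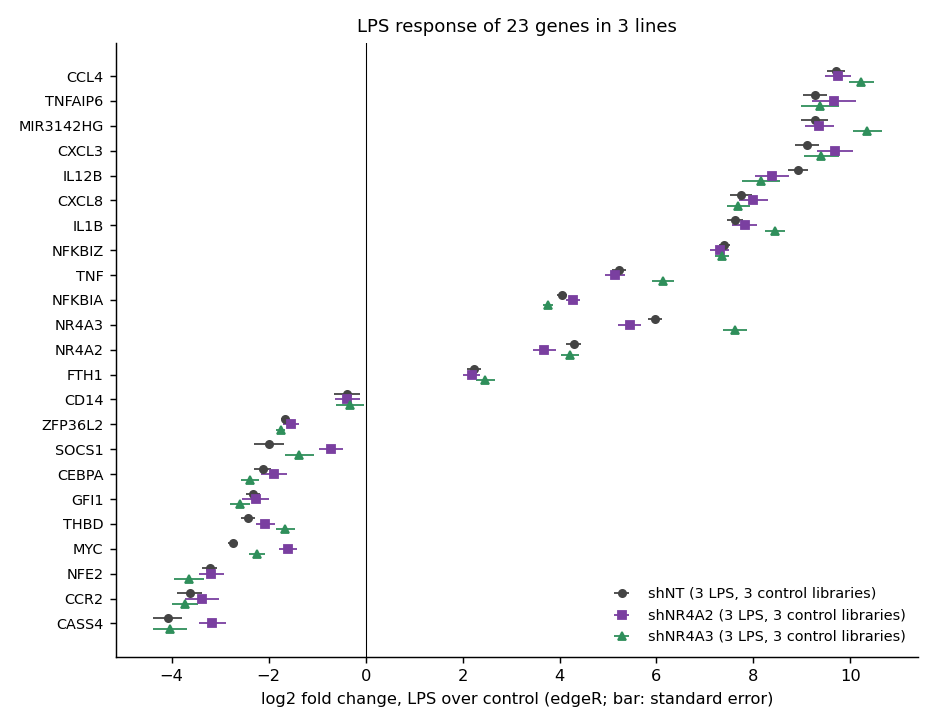
Log2 fold change with LPS over control (x axis, bars show the standard error) of 23 genes in the shNT, shNR4A2 and shNR4A3 lines, each fitted on its own 3 LPS and 3 control libraries. All genes but CD14 lie on the same side of 0 well beyond their standard errors in all 3 lines, and MYC lies at -2.74 in shNT, -1.60 in shNR4A2 and -2.24 in shNR4A3 cells.

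Whether this response differed from that of the lines with a knocked-down receptor was tested as an interaction of line and LPS. Of 16674 genes tested with the shNR4A2 line 0 (0.0%) were called at an adjusted p under 0.05 by edgeR, with 365 (2.19%) at an unadjusted p under 0.05, and of 16428 with the shNR4A3 line 0 (0.0%), with 824 (5.02%). If no gene differed, a share of 0.05 would have an unadjusted p under 0.05. With the replicate number as a block in edgeR, 681 and 1451 genes had such a p. The counts of called genes were not stable. DESeq2 called 2 and 10 genes, and a fit blocked on the replicate number 8 and 22. Leaving out replicate 2 of the knockdown line's LPS libraries gave 8 and 44. Both tests share the 6 shNT libraries. In simulated data with 200 changed genes, the test recovered 47 and 54 of 100 genes that differed 2-fold and 80 and 83 of 100 that differed 4-fold, so that differences of that size could be missed.

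Single genes are given for the 3 lines side by side. IL12B had log2 fold changes of 8.91 in shNT, 8.38 in shNR4A2 and 8.17 in shNR4A3 cells, CXCL8 of 7.75, 7.999 and 7.68, and CEBPA of -2.12, -1.89 and -2.39. MYC fell by 2.74 in shNT, by 1.60 in shNR4A2 and by 2.24 in shNR4A3 cells. Its difference between shNT and shNR4A2 cells was -1.14 (standard error 0.224) and was not called by edgeR (adjusted p = 0.946), but it was called by DESeq2 (adjusted p = 0.045) and with the replicate block in edgeR (adjusted p = 0.0391). Against shNR4A3 cells 10 genes were called by both, 9 with the shNT response more negative and 1, the chemokine receptor CXCR4, with it more positive. They included LINC01268, TP53INP2 and KDM6B, with differences of -1.17, -1.29 and -0.84 in the edgeR fit without the block, against 1.56 for CXCR4, and these genes were chosen after their values were seen. Of the 22 genes called with the block 19 leaned the same way as the 9, among them IL1B, with a difference of -0.80 in the blocked edgeR fit (adjusted p = 0.0161) and of -0.83 without the block (adjusted p = 0.791).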

How the data were processed

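Polyadenylated RNA was sequenced by the authors from both ends, and reads were trimmed, aligned to GRCh38 and counted with Trimmomatic 0.36, STAR 2.5.2b and featureCounts of Subread 1.5.2, per the submitters' processing notes. The annotation release and strand setting are not given in the sources used here. The deposited values are whole-number counts per Ensembl gene, without normalization, with gene lengths. Symbols came from GENCODE 29 for 56898 of 57500 genes.

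The 3 LPS and 3 control libraries of shNT cells were compared with edgeR 4.0.16 in R 4.3.3 (filterByExpr defaults, TMM, quasi-likelihood F test, Benjamini-Hochberg over all genes tested). A call needed a 2-fold change and an adjusted p below 0.05. Interactions used 12 libraries each, with no fold limit. TPM was computed from counts and deposited lengths, and overlap was judged on TMM-scaled CPM. Data were simulated for the shNT comparison over 15711 genes. At an adjusted p below 0.05 alone, 78 of 100 genes changed 2-fold and 98 of 100 changed 4-fold were recovered, with 5.38% false calls. The 2-fold limit was not applied to the simulated data, so these shares do not describe calls under both limits.

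Named were the 15 largest rises and falls in log2 fold change with non-overlapping libraries and a mean of at least 2 TPM, the 10 largest gains and losses in TPM, and list members. Members, lists and tests were chosen with earlier results of these data known. The names AUF1 and ROCKI matched no gene, and values of some list members are not reported here. Alternatives were DESeq2 1.42.0, RLE size factors, library totals, no filter, a mean of at least 1 TPM, all 18 libraries in 1 fit, glmTreat, a 1.4-fold or no fold limit, the replicate block and each library left out. No 2 libraries held identical counts.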

Additional observations from a re-analysis of the deposited data

Results flagged for a closer look

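FOS, an AP-1 subunit gene, was singled out because, as counts relative to library totals, its LPS libraries all exceeded the control libraries in shNT cells and all fell short of them in shNR4A2 cells. Its log2 fold change was 0.42 (standard error 0.112) in shNT and -0.09 (standard error 0.152) in shNR4A2 cells, a difference of 0.51, and the interaction was not called by edgeR's quasi-likelihood test (adjusted p = 1).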

How the results depend on the processing

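The count of genes called in shNT cells stayed within 1.5 times of 1188 with DESeq2 (1136), RLE size factors (1178), a mean of at least 1 TPM (1100), all 18 libraries (1305), no filter (1388) and library totals (1417), and between 1126 and 1236 without 1 library. It was 2578 at 1.4-fold (1130 higher, 1448 lower), 3909 without a fold limit (1820 higher, 2089 lower) and 554 with glmTreat against 2-fold (454 higher, 100 lower). With library totals 809 genes were called lower. No called gene changed direction in any of these. Blocking on the replicate number gave 1219 calls (706 higher, 513 lower). Deviations of same-numbered LPS and control libraries correlated at 0.256, 0.0598 and 0.133 over genes. For differently numbered libraries the correlations ran from -0.203 to 0.0751. Each sample but LPS replicate 2 correlated best with its own number in the other group. The main fits did not pair the samples, since the study names no block, and whether the numbers pair them was not settled.

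The interaction counts depended most on the setting. Against shNR4A2 cells 0 genes became 2 with DESeq2, 29 without a filter and 8 with the replicate block, and between 0 and 8 without 1 library, with the 8 when shNR4A2 LPS replicate 2 was left out. Against shNR4A3 cells 0 became 10, 138 and 22, and between 0 and 44 without 1 library, with the 44 when shNR4A3 LPS replicate 2 was left out. The cause was not tested.

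Several calls of named genes near the 2-fold limit were lost. The log2 fold change of BHLHE40 was -0.99, -0.8715 and -0.8375 without LPS replicate 2, LPS replicate 3 and control replicate 1, and the log2 fold change of ID1 was -0.9314, -0.958 and -0.9888 without the same libraries. The log2 fold change of TLR4 was 0.9202 with library totals and 0.9796 without LPS replicate 1, and the log2 fold change of CCND1 was 0.9817 with library totals. The log2 fold change of TNFSF13B was -0.8844 without LPS replicate 1, the log2 fold change of TXNIP -0.99 without LPS replicate 2 and the log2 fold change of GATA2 -0.985 without LPS replicate 3. With glmTreat 18 calls of named genes were lost. Of the MAP kinase phosphatases and related inhibitors 4 were then called higher and 0 lower.

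Some genes named as not called had no settled direction. The log2 fold change of CXCL16 was -0.152 with library totals and between -0.221 and 0.394 without 1 library. The log2 fold change of IRAK1 was -0.0813 with library totals and between -0.00786 and 0.162 without 1 library. The log2 fold change of CD86 was between -0.436 and 0.181 without 1 library. With 3 libraries a group of 17132910 to 21602737 counts, changes under 2-fold and of genes with few counts are the least certain.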

Other observations

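The genes below lie outside the lists and were picked from the called genes after their values were seen, so they stand for no group and no share of called genes is given. HHEX, a homeobox factor of blood progenitors, fell from 26.8 ± 1.48 to 4.33 ± 0.970 TPM, LYL1 from 47.9 ± 4.30 to 12.2 ± 3.03 TPM, RARA, the retinoic acid receptor, from 45.7 ± 2.05 to 10.5 ± 2.73 TPM and GATA2 from 39.4 ± 2.42 to 16.1 ± 2.42 TPM (SD, n = 3 each), with log2 fold changes of -2.41, -1.77, -1.91 and -1.08 by edgeR. The nucleotide receptor P2RY2 fell from 172 ± 20.6 to 60.1 ± 21.0 TPM. PPP1R15A (GADD34), which restarts translation after stress, had 45.8, 41.7 and 34.3 TPM in control and 929, 938 and 716 TPM in LPS libraries, XBP1, of the unfolded protein response, rose from 337 ± 6.98 to 851 ± 58.6 TPM, and NFE2L2 (NRF2), of the oxidant response, from 74.3 ± 6.37 to 366 ± 18.6 TPM.

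The inward rectifier potassium channel KCNJ2 had 0.315, 0.560 and 0.682 TPM in control and 84.2, 113 and 89.5 TPM in LPS libraries, a log2 fold change of 7.75. IGKC, the constant region of the immunoglobulin kappa chain, had 0, 0 and 0 counts in control and 13, 16 and 33 counts in LPS libraries, at least 18.2-fold higher against a floor of 3 counts over the control group. Of the B cell markers, CD79A had a log2 fold change of 1.05, and PAX5, the most abundant, had -0.26. The CD79A call was lost in several alternatives, among them DESeq2, glmTreat and leaving out any 1 of the 6 libraries. Their part in the result was not tested.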
